A study of Mus musculus with 40 samples.

Results

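The results concern 9 mouse genes of fatty acid uptake and binding, Lpl, Gpihbp1, Vldlr, Cd36, Slc27a1, Fabp4, Fabp5, Fabp3 and Aqp7, of 21938 protein-coding genes. They were picked for their roles and not by a measured value. Fat cells take up fatty acids through a chain of proteins. Lipoprotein lipase (LPL) splits the triglycerides of circulating lipoproteins on the capillary wall, where GPIHBP1 anchors it, and VLDLR binds triglyceride-rich lipoproteins. CD36 and the transport protein FATP1, the product of Slc27a1, bring the freed fatty acids into the cell, fatty acid binding proteins (FABPs) carry them through the cytoplasm, and the channel aquaporin 7 lets glycerol out. The mark measured at them was H3K27ac, an acetylation of histone H3 found at active promoters and enhancers.

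Libraries of H3K27ac chromatin immunoprecipitation (ChIP-seq) came from cultured preadipocytes of the inguinal white fat of young adult C57BL/6 mice. WT cells were compared with DKO cells, which lack the nucleosome-binding proteins HMGN1 and HMGN2 in every cell of the animal (Hmgn1-/- Hmgn2-/-). Both genotypes were sampled as preadipocytes (day 0), during differentiation (days 3 and 6) and as brown-like adipocytes (day 9), with 3 libraries in each of the 8 groups. The inducing medium held insulin, dexamethasone, IBMX, T3 and rosiglitazone, an agonist of the receptor PPARγ. It was given for 4 days, and insulin with T3 for the following 4 days, to both genotypes. By this schedule day 3 fell within the inducing medium and days 6 and 9 after the change of medium. The step from day 3 to day 6 thus spans that change, and time and medium cannot be told apart there. The study describes the libraries as biological replicates, and the labels number them without naming the animals or cultures behind each, so p-values measure the spread between these libraries.

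For each gene the window was its GENCODE span on mm10 with 10 kb upstream. Covered length is the number of kb in that window under the peaks of a library, fold is the height of a peak at its summit over the local background, and rank is the place of a peak in its list when ordered by q. A gene was tested where it had covered length in at least 3 libraries, which held for 15592 genes and for 8 of the 9. Gpihbp1 (chr15:75596628-75599481, plus strand) had no peak in its window in any of the 24 libraries, and the depth of these libraries sets what could be called there.

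The 24 lists held 47448 to 115923 peaks. DKO day 0 replicate 2 stood apart, with a median peak of 1076 bp against 313 to 376 bp elsewhere, and WT day 3 replicate 3 was the shallowest, with a local background of 4.52 reads per kb against 8.62 to 12.9. Peaks covered 20.7 to 36.3 Mb of the genome in DKO day 6 libraries and 55.5 to 60.4 Mb in WT day 6 libraries, while at day 9 DKO covered 61.2 to 68.8 Mb and WT 48.2 to 59.6 Mb. Because of this, each covered length is also given per 100 Mb that the peaks of the library covered in all where it changes a call. Hmgn2 had 0 kb in 12 of 12 DKO libraries and 0.781 to 1.80 kb in the WT libraries, and Hmgn1 kept peaks in both genotypes, so its window does not check the deletion. The summed covered length of 6 adipocyte markers was 6.66 to 8.95 kb at WT day 0 and 7.95 to 17.2 kb at DKO day 0. It was 39.7 to 49.1 kb at WT day 9 and 66.8 to 71.5 kb at DKO day 9, with Lep at 0 in 23 of 24 libraries. Macrophage and blood markers (Ptprc, Csf1r, Adgre1, Cd68 and Lyz2) summed to 27.1 to 29.5 kb at WT day 0, 33.1 to 61.9 kb at DKO day 0, 8.15 to 10.2 kb at WT day 9 and 11.04 to 13.3 kb at DKO day 9.

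The sequences of some promoters and of an intronic summit of these genes come next. No promoter was on hand for Lpl and Fabp4, whose covered length rose the most after Cd36 from day 0 to day 9. RefSeq promoters on GRCm38.p6, the assembly behind mm10, were on hand for 5 of the 9 genes, namely Aqp7, Cd36, Vldlr, Slc27a1 and Fabp3, and all 9 promoters of these genes matched the genome letter for letter. The Aqp7 promoter is shown since no library of days 0 and 3 had a peak at it, the Cd36 promoter since it lies in the region that widened most, the Vldlr promoter since its region rose most in height, and the Cd36 intron since a peak was called there in 24 of 24 libraries. Each runs 5′ to 3′ on the strand of the gene, and the capitals mark a motif match.
Aqp7 promoter (chr4:41048137-41048386, minus strand): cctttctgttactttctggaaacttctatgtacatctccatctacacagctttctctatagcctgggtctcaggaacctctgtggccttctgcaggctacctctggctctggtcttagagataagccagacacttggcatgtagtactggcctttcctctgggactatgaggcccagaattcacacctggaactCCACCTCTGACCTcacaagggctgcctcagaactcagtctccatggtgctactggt
Cd36 promoter (chr5:17835897-17836146, minus strand): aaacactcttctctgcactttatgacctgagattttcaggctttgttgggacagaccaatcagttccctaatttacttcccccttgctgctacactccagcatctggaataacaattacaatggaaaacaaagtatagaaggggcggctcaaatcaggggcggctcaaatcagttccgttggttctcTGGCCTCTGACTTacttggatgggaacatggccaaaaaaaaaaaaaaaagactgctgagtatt
Vldlr promoter (chr19:27216234-27216483, plus strand): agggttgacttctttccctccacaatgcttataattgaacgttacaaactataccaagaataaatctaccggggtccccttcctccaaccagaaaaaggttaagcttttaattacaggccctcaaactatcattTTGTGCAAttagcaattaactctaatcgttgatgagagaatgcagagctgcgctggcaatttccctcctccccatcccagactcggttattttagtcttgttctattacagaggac
Cd36 intron summit (chr5:17876954-17877253, minus strand): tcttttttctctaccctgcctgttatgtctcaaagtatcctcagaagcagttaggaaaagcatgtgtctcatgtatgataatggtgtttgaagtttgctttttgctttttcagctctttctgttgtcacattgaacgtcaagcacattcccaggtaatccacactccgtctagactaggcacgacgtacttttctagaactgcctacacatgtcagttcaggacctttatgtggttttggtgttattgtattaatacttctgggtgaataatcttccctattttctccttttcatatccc
The motifs searched, on both strands, were 2 copies of AGGTCA with 1 base between them and at most 2 mismatches, the DR1 element that PPAR and RXR bind, TTGCNNAA, the core of a C/EBP site, and TGANTCA, the AP-1 site. DR1 matches began at base 195 of the Aqp7 promoter and at base 188 of the Cd36 promoter, each with 2 mismatches on the opposite strand. A TTGCNNAA match began at base 135 of the Vldlr promoter, also on the opposite strand. DR1 was found in 3 of the 9 promoters, which belong to 2 genes, and in 3.24% of 32851 promoters of the same 250 bases. The other RefSeq promoter of Aqp7, chr4:41047963-41048212, overlaps the printed one and holds the same match at its base 21. This element is thus counted in both. TTGCNNAA was found in 1 of the 9 and in 9.56% of all promoters, and TGANTCA in 0 of the 9 and in 6.75%. The 300 bases at the summits of 9 regions of Cd36, Slc27a1, Vldlr and Aqp7 held none of the 3 motifs, which were present in 4.01%, 8.85% and 5.53% of 15375 such windows. A match or its absence is a description of letters only.

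Along the differentiation, the mark spread at most of these genes. Between day 0 and day 9 the covered length rose at 7 of the 8 tested genes in an exact permutation test within genotypes, against 16.8% of all genes tested, while none of the 8 fell, against 15.3%. The median change of the 8 was 2.86 kb, beside 0.0365 kb over all genes. Cd36 gained the most kb, Aqp7 gained its first peaks at the gene start between day 3 and day 6, Slc27a1 first lost and then regained covered length, and Fabp3 had only small peaks in 6 libraries. No gene of the 8 passed the genotype test over the 4 days together, and at day 9 the DKO libraries lay above the WT libraries at 6 of them, against 30.3% of all genes, and at 4 of them per 100 Mb covered, against 13.8%.

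**Figure D1:**
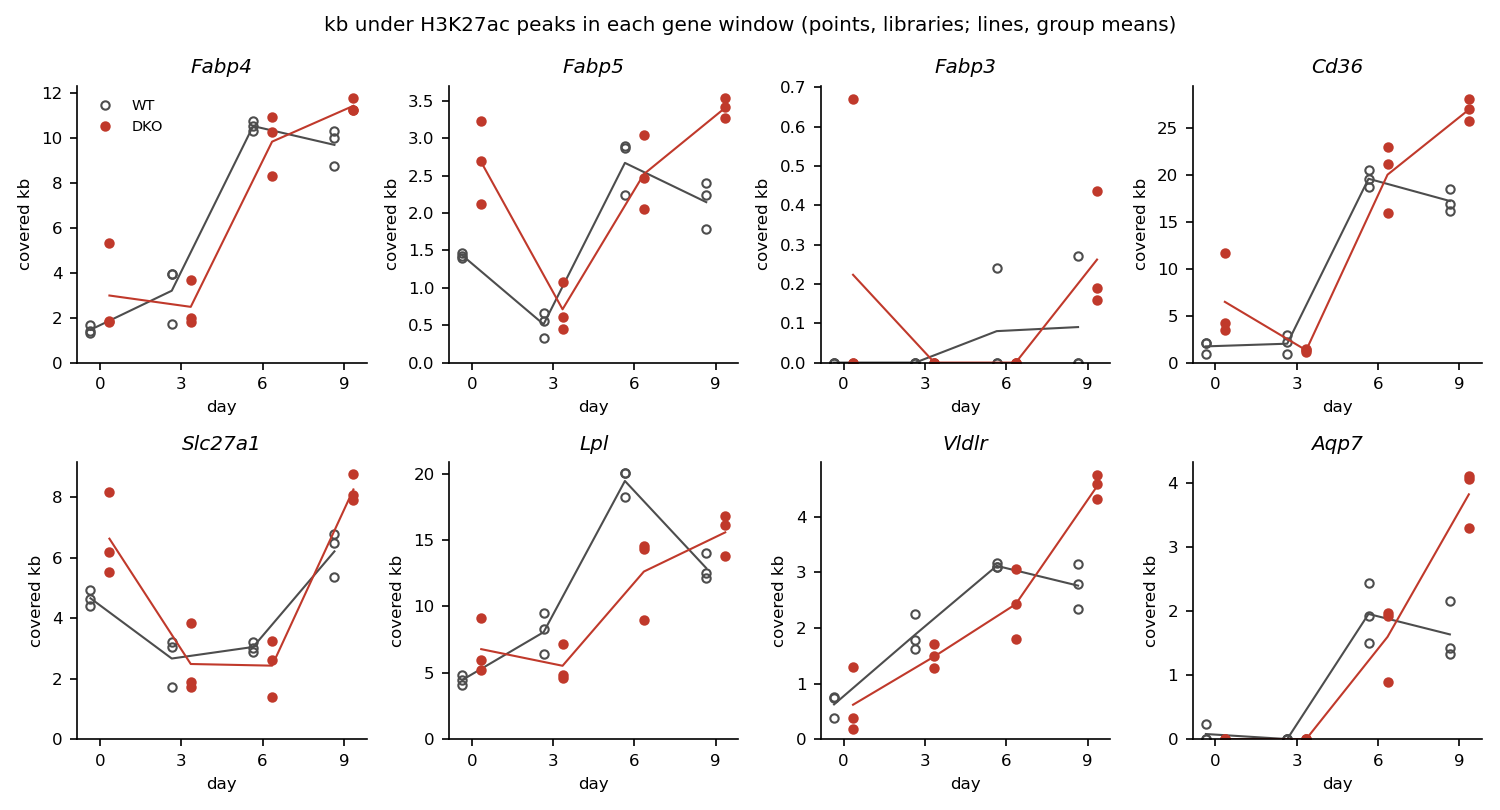
Covered length in kb (y axis) by day (x axis) for the 8 genes with a peak, with a point for each library and lines through the group means of WT and DKO. Cd36 reached 25.7 to 28.1 kb in DKO at day 9 against 16.1 to 18.5 kb in WT, and Lpl was lower in all DKO than in all WT libraries at day 6.

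Lpl (chr8:68880491-68907448, plus strand) encodes the lipase itself and had the strongest peaks of the set, ranked 16 to 1594 in every list, with folds of 15.9 to 37.9. It covered 4.12, 4.45 and 4.80 kb in WT and 5.24, 9.13 and 5.97 kb in DKO at day 0. At day 3 it covered 8.28, 9.51 and 6.39 kb in WT and 4.58, 7.17 and 4.83 kb in DKO. The groups were apart at day 0 and overlapped at day 3. At day 6 it covered 18.3, 20.1 and 20.1 kb in WT and 14.4, 14.5 and 8.98 kb in DKO. At day 9 it covered 12.1, 14.0 and 12.5 kb in WT and 16.1, 13.8 and 16.8 kb in DKO. The WT mean was highest at day 6 and the DKO mean at day 9. The rise from day 0 to day 9 was 8.62 kb (exact permutation test, p = 0.005, adjusted p = 0.0198).

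The DKO deficit of Lpl at day 6 was 6.83 kb (12.6 ± 3.17 kb against 19.5 ± 1.03 kb, SD, n = 3), and the groups did not overlap, as was so for 61.1% of all genes tested in that direction. The order turned per 100 Mb covered, with 41.4 ± 1.78 kb in DKO and 33.9 ± 1.96 kb in WT. Most Lpl signal sat in a region of 15281 bp over the gene start, chr8:68877964-68893244, called in 24 of 24 libraries, where WT covered 11.8 to 13.5 kb and DKO 7.79 to 11.5 kb at day 6. A further region at the 3′ end, chr8:68905744-68912237, runs past the gene end, where the window stops. Counted over the whole region, it covered 4.50 to 5.02 kb in WT libraries and 1.04 to 3.20 kb in DKO libraries at that day. Only its bases up to 68907448 enter the covered length of Lpl.

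Vldlr (chr19:27216484-27254231, plus strand), the receptor for triglyceride-rich lipoproteins, rose from day 0 to day 9 in both genotypes. It covered 0.748, 0.752 and 0.372 kb in WT and 0.18, 1.30 and 0.375 kb in DKO at day 0, and 2.24, 1.78 and 1.63 kb in WT and 1.49, 1.70 and 1.27 kb in DKO at day 3. At day 6 it covered 3.16, 3.09 and 3.10 kb in WT and 2.42, 3.06 and 1.80 kb in DKO. The day 6 groups were apart by little, the highest DKO library standing at 3.06 kb and the lowest WT library at 3.09 kb. At day 9 it covered 2.35, 2.78 and 3.15 kb in WT and 4.75, 4.58 and 4.31 kb in DKO, so that every DKO library exceeded every WT library. The difference was -0.69 kb at day 6 and 1.79 kb at day 9, and the rise from day 0 to day 9 was 3.03 kb (exact permutation test, adjusted p = 0.0198). DKO was higher at both days per 100 Mb covered, by 2.56 kb at day 6 and 2.08 kb at day 9.

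Vldlr also grew in height. Its highest fold was 4.95 to 6.38 in WT lists and 3.81 to 6.84 in DKO lists at day 0, and 12.2 to 13.9 in WT lists and 20.4 to 24.4 in DKO lists at day 9. The ranks at day 9 were 6788 to 10017 in WT lists and 2506 to 3541 in DKO lists. Most of the signal lay in 3405 bp from just before the gene start into the gene (chr19:27216440-27219844), which overlaps the end of the promoter printed above. At day 9 this region covered 2.595 of 2.76 kb in WT and 3.18 of 4.55 kb in DKO on group means. The rest of the DKO length lay in intronic regions. Of these chr19:27220018-27220930, chosen after its values were seen, was called in the 3 DKO libraries of day 9 and in no other. Another at chr19:27224017-27225020 was called in 8 libraries, all of days 6 and 9.

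Cd36 (chr5:17781690-17888801, minus strand) encodes the fatty acid translocase and has the longest window of the set. It covered 2.13, 2.13 and 0.917 kb in WT and 3.51, 11.6 and 4.24 kb in DKO at day 0, where 11.6 kb belongs to the library of wide peaks. At day 3 it covered 2.14, 2.94 and 0.953 kb in WT and 1.32, 1.46 and 1.15 kb in DKO. At day 3 WT thus lay in about the range of its day 0 libraries and DKO below its own. By day 6 it covered 19.5, 18.7 and 20.5 kb in WT and 22.9, 21.1 and 15.9 kb in DKO, and at day 9 16.1, 16.9 and 18.5 kb in WT and 28.1, 26.96 and 25.7 kb in DKO. All 6 libraries of day 6 exceeded all 6 of day 3. The rise from day 0 to day 9 was 18.0 kb (exact permutation test, adjusted p = 0.0198).

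No peak of Cd36 lay at the GENCODE gene start in any library. At days 6 and 9 most of the covered length lay in a region of 18879 bp inside the annotated span, chr5:17830908-17849786, which holds the RefSeq start and the promoter printed above. This region covered 0.271 to 1.00 kb in WT libraries and 2.03 to 4.81 kb in DKO libraries at day 0, 15.3 to 16.1 kb in WT libraries and 13.4 to 16.7 kb in DKO libraries at day 6, and 12.7 to 14.4 kb in WT libraries and 17.4 to 17.6 kb in DKO libraries at day 9. At days 0 and 3 most of the length lay in other regions of the window, this region giving 0.587 of 1.72 kb at WT day 0 and 2.97 of 6.46 kb at DKO day 0 on group means. An intronic region at chr5:17875092-17878029, whose summit is printed above, covered 0.467 to 0.654 kb in WT at day 0 and 2.27 to 2.44 kb in DKO at day 9. Another region of Cd36, chosen after its values were seen, had a peak in no WT library, in 2 DKO libraries of day 6 and in all 3 DKO libraries of day 9, where it covered 0.465 to 0.891 kb.

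DKO exceeded WT at Cd36 without overlap at day 0, by 4.74 kb, and at day 9, by 9.73 kb (26.9 ± 1.179 kb against 17.2 ± 1.21 kb, SD, n = 3). Without the library of wide peaks the day 0 difference was 2.15 kb. The day 9 difference per 100 Mb covered was 10.6 kb, also without overlap. The highest fold at day 9 was 13.1 to 14.7 in WT lists and 15.2 to 19.0 in DKO lists.

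Slc27a1 (chr8:71568882-71587302, plus strand), which encodes the acyl-CoA synthetase and transporter FATP1, followed another course. It covered 4.39, 4.64 and 4.95 kb in WT and 5.52, 8.18 and 6.20 kb in DKO at day 0, and 3.20, 3.06 and 1.73 kb in WT and 1.88, 3.85 and 1.73 kb in DKO at day 3. All libraries of day 3 lay below all libraries of day 0. By day 6 it covered 2.89, 3.22 and 3.03 kb in WT and 2.63, 3.26 and 1.399 kb in DKO, and at day 9 5.35, 6.49 and 6.79 kb in WT and 7.91, 8.78 and 8.08 kb in DKO. It was the 1 gene of the 8 whose day 9 libraries all exceeded its day 6 libraries. The difference between day 9 and day 0 was 1.59 kb (exact permutation test, adjusted p = 0.0467), which missed the threshold under 5 of the other peak and window settings and by limma on log2 of covered kb (adjusted p = 0.169). DKO exceeded WT without overlap by 1.97 kb at day 0 and 2.05 kb at day 9, and on neither day per 100 Mb covered. The day 0 difference was 1.1985 kb without the library of wide peaks.

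Most of the loss at Slc27a1 came from inside the gene. A region at chr8:71577719-71582025 covered 2.63 to 3.16 kb in WT libraries and 3.68 to 3.97 kb in DKO libraries at day 0, and at most 1.83 kb in any later library. The region over the gene start, chr8:71568685-71573638, was called in 24 of 24 libraries and covered 1.40 to 1.52 kb in WT at day 0 and 3.20 to 3.82 kb in DKO at day 9. From day 0 to day 3 its group mean went from 1.46 to 1.44 kb in WT and from 2.19 to 1.31 kb in DKO. An upstream region at chr8:71563081-71564557 covered at most 0.313 kb at day 0 and 0.824 to 1.32 kb at day 9. Another at chr8:71558703-71559401, which begins before the window, was called in all libraries of day 0. Later it was called in 1 DKO library of day 3 and 1 of day 9. The neighbouring gene Nxnl1 overlaps the window, and a peak there was counted for both.

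**Figure D2:**
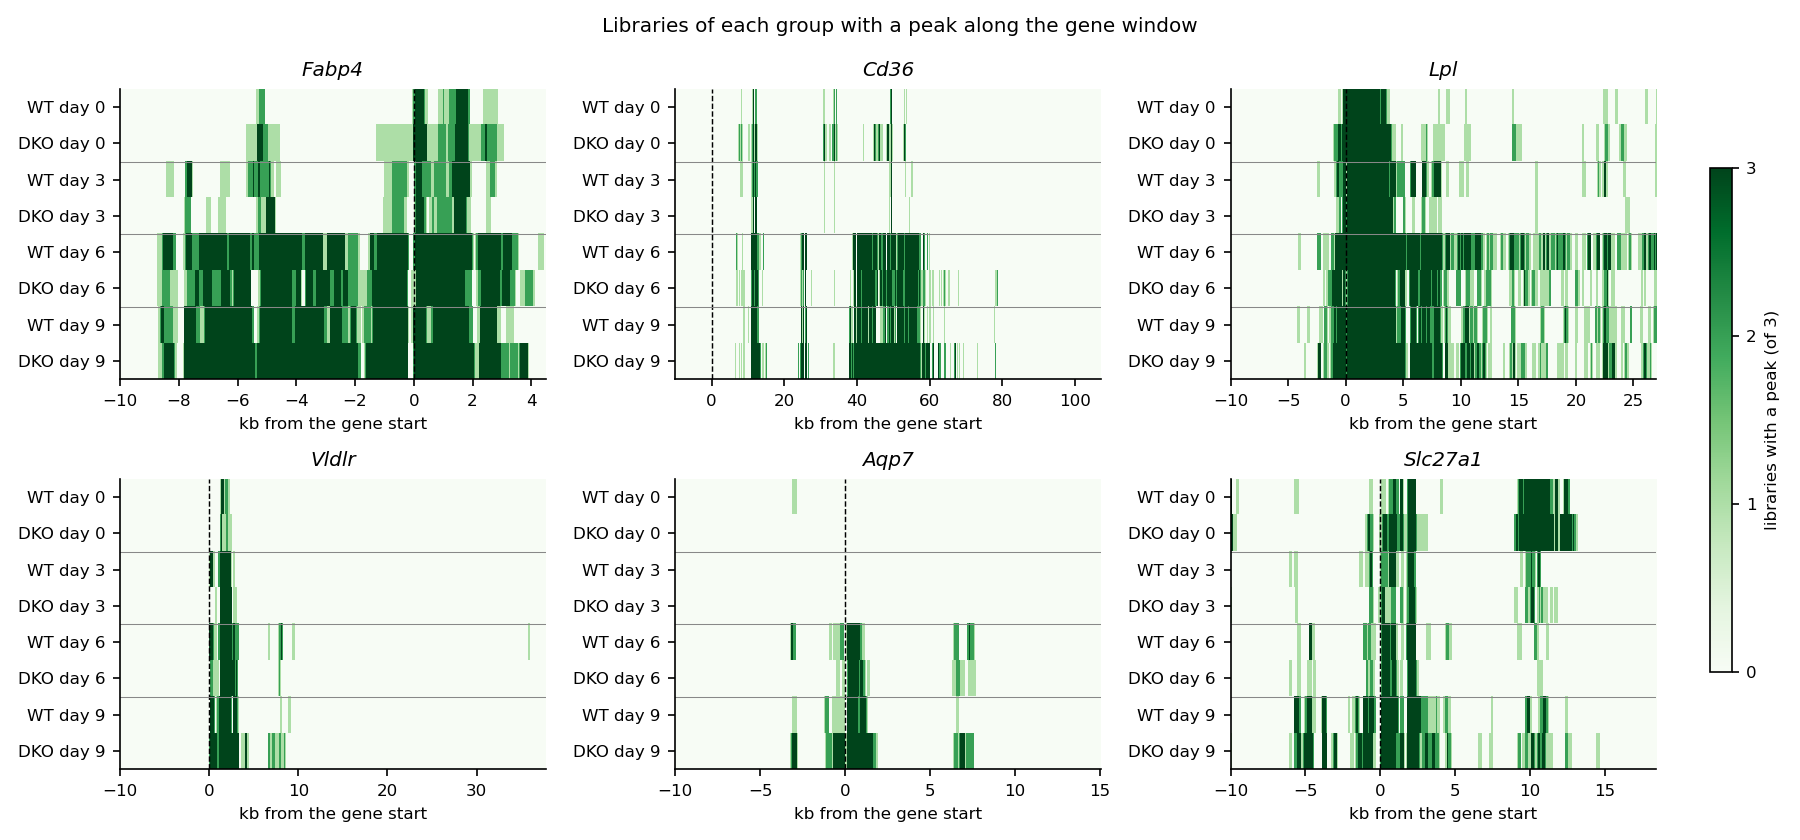
Number of libraries of a group (0 to 3, colour) with a peak at each position of the windows of Fabp4, Cd36, Lpl, Vldlr, Aqp7 and Slc27a1, by distance from the gene start in kb, with upstream to the left. Aqp7 was empty over its start at days 0 and 3, and Slc27a1 lost a block inside the gene after day 0.

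Fabp4 (chr3:10204088-10208576, minus strand) encodes the main cytoplasmic fatty acid carrier of fat cells. It covered 1.32, 1.65 and 1.395 kb in WT and 1.78, 5.31 and 1.85 kb in DKO at day 0, where 5.31 kb belongs to the library of wide peaks. At day 3 it covered 3.92, 3.93 and 1.73 kb in WT and 1.79, 3.67 and 1.97 kb in DKO. The lowest WT value of day 3 was that of the shallow library. By day 6 it covered 10.3, 10.5 and 10.7 kb in WT and 10.9, 10.3 and 8.29 kb in DKO, and at day 9 8.74, 10.3 and 10.003 kb in WT and 11.8, 11.2 and 11.2 kb in DKO. All libraries of day 6 exceeded all libraries of day 3. The rise from day 0 to day 9 was 8.33 kb (exact permutation test, adjusted p = 0.0198), and at DKO day 9 peaks filled 78.8 ± 2.15% of the window.

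Nearly all of it was 1 region, chr3:10204456-10216427, from -7851 to 4120 bp of the gene start, called in 24 of 24 libraries. It covered 1.32 to 1.65 kb in WT at day 0 and 10.8 to 11.2 kb in DKO at day 9. A second region further upstream, chr3:10216603-10217299, was called in 12 libraries, none of day 0. DKO exceeded WT at Fabp4 without overlap by 1.52 kb at day 0 and by 1.74 kb at day 9. The day 0 difference was 0.36 kb without the library of wide peaks, the groups overlapped at a −log10 q of at least 5, and with the 20000 strongest peaks it turned to -0.30 kb. The day 9 difference was 0.22 kb per 100 Mb covered, with overlap, and where each summit counted for 250 bp on either side DKO lay below WT by 1.84 kb without overlap. The DKO lists of day 9 held 5 to 7 peaks there and the WT lists 7 to 12. The highest fold at day 9 was 11.03 to 11.3 in WT lists and 15.0 to 19.1 in DKO lists.

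Fabp5 (chr3:10012548-10016607, plus strand) encodes the epidermal form, which fat cells and macrophages also make. It covered 1.47, 1.43 and 1.41 kb in WT and 2.12, 3.23 and 2.69 kb in DKO at day 0, and 0.330, 0.550 and 0.657 kb in WT and 0.447, 1.08 and 0.613 kb in DKO at day 3. It was thus lower in all libraries of day 3 than in all of day 0. At day 6 it covered 2.87, 2.25 and 2.90 kb in WT and 2.47, 3.04 and 2.05 kb in DKO, and at day 9 1.79, 2.41 and 2.24 kb in WT and 3.54, 3.27 and 3.41 kb in DKO. DKO exceeded WT without overlap by 1.25 kb at day 0 and by 1.26 kb at day 9. Over the 4 days its mean difference of 0.64 kb had the lowest unadjusted p of the 8 (exact permutation test, p = 0.0046, adjusted p = 0.239). The rise from day 0 to day 9 was 0.72 kb (exact permutation test, adjusted p = 0.0198), with overlap of the 6 and 6 libraries. It missed the threshold with 10 kb downstream added (0.84 kb, exact permutation test, adjusted p = 0.422), with the 20000 strongest peaks (0.18 kb, adjusted p = 0.958) and by limma on log2 of covered kb (adjusted p = 0.0512), and turned to -0.12 kb with 250 bp on either side of each summit.

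Fabp3 (chr4:130308595-130315463, plus strand), the heart-type FABP, had a peak in 6 libraries, at the gene start. These covered 0.670 kb in DKO day 0 replicate 2, 0.240 kb in WT day 6 replicate 3, 0.271 kb in WT day 9 replicate 1 and 0.437, 0.189 and 0.160 kb in DKO at day 9. The peaks ranked between 54531 and 94081, at 61.3 to 89.9% of the length of their lists, with 11 to 19 reads at the summit. They lay in the weaker part of the lists, so little can be said of a difference here. The 3 DKO libraries of day 9 each had a peak and overlapped with the WT libraries.

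Aqp7 (chr4:41033074-41048139, minus strand), the glycerol channel, gained its peaks between day 3 and day 6. It covered 0 kb in all DKO libraries of day 0, in all libraries of day 3 and in WT day 0 replicates 1 and 3, and 0.237 kb in WT day 0 replicate 2. At day 6 it covered 1.93, 1.496 and 2.43 kb in WT and 1.97, 1.91 and 0.898 kb in DKO, and at day 9 1.42, 2.16 and 1.32 kb in WT and 4.06, 4.11 and 3.29 kb in DKO. WT stayed at about its day 6 level while DKO rose. The rise from day 0 to day 9 was 2.69 kb (exact permutation test, adjusted p = 0.0198). DKO exceeded WT at day 9 by 2.19 kb without overlap (3.82 ± 0.46 kb against 1.63 ± 0.46 kb, SD, n = 3), and by 2.97 kb per 100 Mb covered.

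The region over the Aqp7 start, chr4:41046233-41049341, had a peak in none of the 12 libraries of days 0 and 3, and all 12 libraries of days 6 and 9 had one. It covered 1.01 to 2.16 kb in WT libraries and 2.37 to 2.97 kb in DKO libraries at day 9. The highest fold in the window at day 9 was 5.46 to 7.59 in WT lists and 14.3 to 17.6 in DKO lists, at ranks of 20693 to 39239 and 7670 to 10293. The best-ranked peaks of day 9 held 32, 32 and 39 reads over a local background of 4.80, 5.69 and 4.27 reads in WT lists. In DKO lists they held 62, 46 and 44 reads over 2.57, 1.80 and 2.14. The gap in fold thus holds a higher local background in WT as well as more summit reads in DKO. The group folds of day 6 lay between those of day 9, at 8.92 to 10.5 in WT lists and 9.84 to 11.6 in DKO lists. The best-ranked WT peaks of day 6 held 31, 31 and 35 reads over 2.05, 2.25 and 3.04.

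Between day 0 and day 3 the libraries of Fabp5 and Slc27a1 fell without overlap, against 18.1% of all genes, and none of the 8 genes rose, against 0.840%. Between day 3 and day 6 Fabp4, Fabp5, Cd36 and Aqp7 rose, 4 of 8 against 4.15% of all genes. Between day 6 and day 9 Slc27a1 rose, 1 of 8 against 8.08%. Without DKO day 0 replicate 2, Vldlr also rose between day 0 and day 3, against 321 of 15548 genes. In kb per 100 Mb covered, Fabp4, Lpl and Vldlr rose between those days, against 1520 of 15592 genes, and Slc27a1 did not fall without overlap. On that scale Lpl fell between day 6 and day 9, against 623 of 15592 genes.

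The genotypes were first compared over the 4 days, by the mean of the daily DKO minus WT differences. None of the 8 genes passed in either direction, as 0.109% of all genes passed lower and 0.0192% higher. The difference was 3.55 kb at Cd36 (exact permutation test, p = 0.0141, adjusted p = 0.341), 0.81 kb at Slc27a1 (adjusted p = 0.553), 0.46 kb at Fabp4 (adjusted p = 0.888) and 0.44 kb at Aqp7 (adjusted p = 0.615). It was 0.17 kb at Vldlr (exact permutation test, adjusted p = 0.945), 0.08 kb at Fabp3 (adjusted p = 0.855) and -1.09 kb at Lpl (adjusted p = 0.870). The median of the 8 was 0.45 kb, beside -0.0081 kb over all genes. Per 100 Mb covered 4 of the 8 passed higher, against 10.1% of all genes, namely Cd36 (12.03 kb, exact permutation test, adjusted p = 0.0053), Fabp5 (1.80 kb, adjusted p = 0.0032), Slc27a1 (1.51 kb, adjusted p = 0.030) and Aqp7 (1.13 kb, adjusted p = 0.0475).

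Day by day, the smallest p an exact test of 3 against 3 can give is 0.1, so groups were read as apart where they did not overlap. At day 0 DKO was higher at Fabp4, Fabp5, Cd36, Slc27a1 and Lpl, 5 of 8 against 19.2% of all genes, and lower at none, against 0.718%. The summed macrophage and blood markers were also higher in each DKO than in each WT library at day 0. Taken singly, 4 of the 5 tested were higher without overlap. The endothelial markers were Pecam1, Cdh5, Tek, Kdr and Tie1, the last at 0 kb. Their sum was also higher in each DKO library (8.46 to 18.1 kb) than in each WT library (7.34 to 7.94 kb). Only 1 of the 4 tested, Pecam1, was higher without overlap, and Tek had group means of 1.84 kb (WT) and 1.86 kb (DKO). The epithelial marker Cdh1, the 1 tested of its list, was higher without overlap too. Macrophages and endothelial cells express several of the fatty acid uptake and binding genes. The part of any of these cell types in the result was not tested. All 5 calls were also found without DKO day 0 replicate 2, against 19.5% of all genes, but the differences fell from 1.52 to 0.36 kb at Fabp4, from 4.74 to 2.15 kb at Cd36, from 2.32 to 1.15 kb at Lpl, from 1.97 to 1.1985 kb at Slc27a1 and from 1.25 to 0.973 kb at Fabp5. Where each summit counted for 250 bp on either side, 2 of 8 were higher, against 249 of 15599 genes. The differences at Fabp5 and Slc27a1 turned to -0.575 and -0.632 kb there. At day 3 none of the 8 was apart in either direction, against 10.6% lower and 0.770% higher. This rests on the shallow library, since without WT day 3 replicate 3 DKO was lower at Fabp4, Cd36, Lpl and Vldlr, 4 of 8 against 52.7% of all genes.

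At day 6 DKO was lower at Lpl and Vldlr, 2 of 8 against 61.1% of all genes, and higher at none, against 0.0641%. The summed preadipocyte and fibroblast markers Pdgfra, Pdgfrb, Dlk1, Ly6a, Cd34 and Thy1 were 36.1 to 38.8 kb in WT libraries and 11.7 to 17.5 kb in DKO libraries at that day, with 5 of 6 lower in DKO without overlap and Dlk1 at 0, and their part was not tested. The summed adipocyte markers overlapped at day 6, at 56.2 to 60.9 kb in WT libraries and 37.4 to 57.6 kb in DKO libraries. Of the 5 tested adipocyte markers none was higher in DKO without overlap and 1, Pparg, was lower, and their part was not tested either. Per 100 Mb covered, 7 of the 8 genes, all but Fabp3, were higher in DKO, against 37.7% of all genes. The scale moved the median difference of all genes from -0.59 kb to 0.47 kb per 100 Mb, and directions at day 6 rest on it. At day 9 DKO was higher at Fabp4, Fabp5, Cd36, Slc27a1, Vldlr and Aqp7, 6 of 8 against 30.3%, and lower at none, against 2.08%. Of these, 4 were apart at day 9 per 100 Mb covered, Fabp5, Cd36, Vldlr and Aqp7, against 13.8% of all genes. The summed adipocyte markers were 39.7 to 49.1 kb in WT libraries and 66.8 to 71.5 kb in DKO libraries at day 9. All 5 tested were higher in DKO without overlap, Pparg by the most (11.65 kb). The summed preadipocyte and fibroblast markers overlapped at day 9, at 35.8 to 41.6 kb in WT libraries and 35.5 to 41.3 kb in DKO libraries. The part of either cell type in the result was not tested. Fewer cells of a type and less mark per cell cannot be told apart in bulk chromatin.

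**Figure D3:**
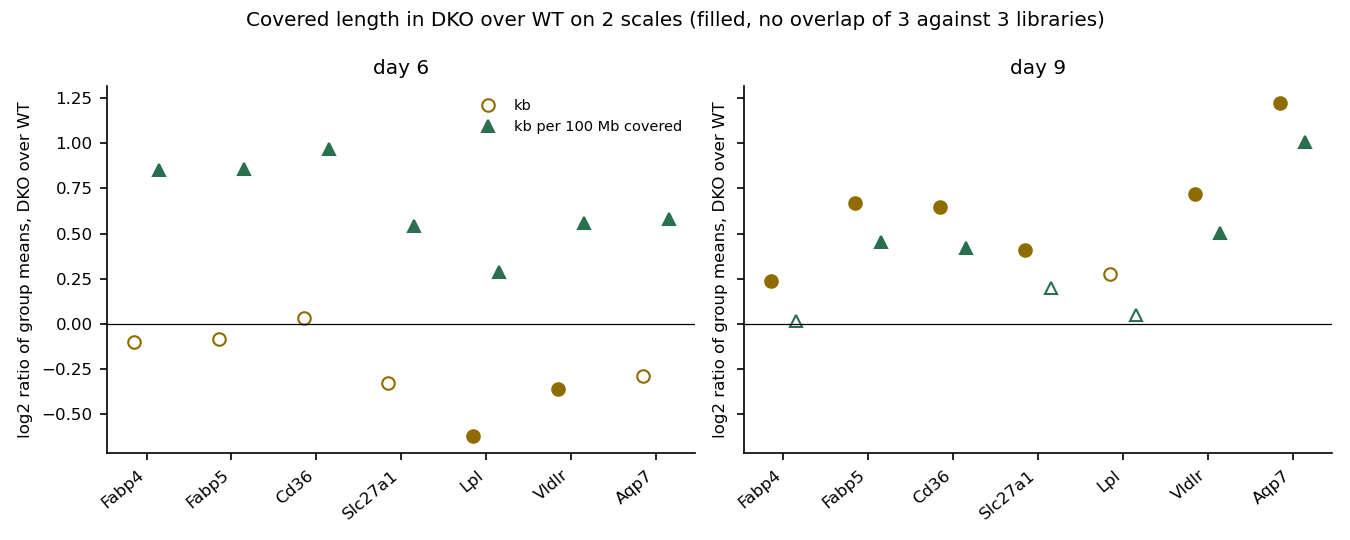
Log2 ratio of the DKO to the WT group mean (y axis) for 7 genes at days 6 and 9, in kb (circles) and in kb per 100 Mb covered (triangles), filled where the 3 and 3 libraries did not overlap. At day 6 the scale turns the direction of 6 of the 7 genes, and at day 9 both scales lie above 0.

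The genotype difference changed with the day at Lpl (exact permutation test of the variance of the daily differences, adjusted p = 0.0265) and at Vldlr (adjusted p = 0.0344), 2 of 8 against 20% of all genes. It did not pass at Aqp7 (exact permutation test, adjusted p = 0.0681), Slc27a1 (0.0950), Cd36 (0.128), Fabp4 (0.131), Fabp5 (0.135) or Fabp3 (0.380). Per 100 Mb covered none of the 8 passed, and 13 of all genes did. Without WT day 3 replicate 3 Fabp4 passed too (exact permutation test, adjusted p = 0.0341), where 5391 of 15579 genes passed.

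Peak height was compared apart from whether a peak was called, in regions called in 24 of 24 libraries, by limma on log2 of the highest fold less the median over such regions in the library (relative fold). Of 15375 such regions 8 lay at these genes, at Lpl, Cd36, Fabp4, Fabp5, Slc27a1 and Vldlr, with Lpl and Cd36 holding 2 each. Aqp7 and Fabp3 had none. From day 0 to day 9 relative fold rose by 1.42 ± 0.13 (log2, SE) at Vldlr (adjusted p = 2e-11, limma), by 0.67 ± 0.13 at Fabp4 (adjusted p = 7.95e-05) and by 0.49 at both Cd36 regions (adjusted p = 0.00206 in the intron and 0.00359 at the RefSeq start). These were 4 of 8, against 19.5% of all regions. The start of Lpl changed by 0.20 ± 0.12 (adjusted p = 0.213, limma) and that of Fabp5 by -0.23 ± 0.13 (adjusted p = 0.178). Without subtraction of the median, which moved these changes by 0.24, the start of Lpl rose by 0.44 (adjusted p = 0.0106, limma) and 6 of the 8 regions passed, against 40.5% of all regions.

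Over the 4 days DKO had the higher relative fold at the start of Lpl (log2 difference 0.40 ± 0.09, SE, adjusted p = 0.00111, limma), at Fabp5 (0.32 ± 0.09, adjusted p = 0.0157) and at the Cd36 region of the RefSeq start (0.27 ± 0.10, adjusted p = 0.0458), 3 of 8 against 7.56% of all regions. At day 6 it was higher at the same Cd36 region (0.72 ± 0.19, adjusted p = 0.00900, limma) and at the start of Lpl (0.67 ± 0.17, adjusted p = 0.00726), 2 of 8 against 6.80%. At day 9 it was higher at Vldlr (0.69 ± 0.19, adjusted p = 0.0158, limma) and in the Cd36 intron (0.59 ± 0.18, adjusted p = 0.0302), 2 of 8 against 4.47%, and 0.51 ± 0.19 at Fabp4 did not pass (adjusted p = 0.0736). At days 0 and 3 none of the 8 passed. With any replicate number left out none of the 8 passed at day 9, against 236 to 257 of 15375 regions higher. Lpl at day 6 was thus shorter in DKO in kb and higher in relative fold at its start. Without subtraction of the library median none of the 8 passed over the 4 days or at day 6, against 170 and 69 of 15375 regions higher. Leaving it out moved the differences by -0.16 over the 4 days and by -0.51 at day 6.

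**Figure D4:**
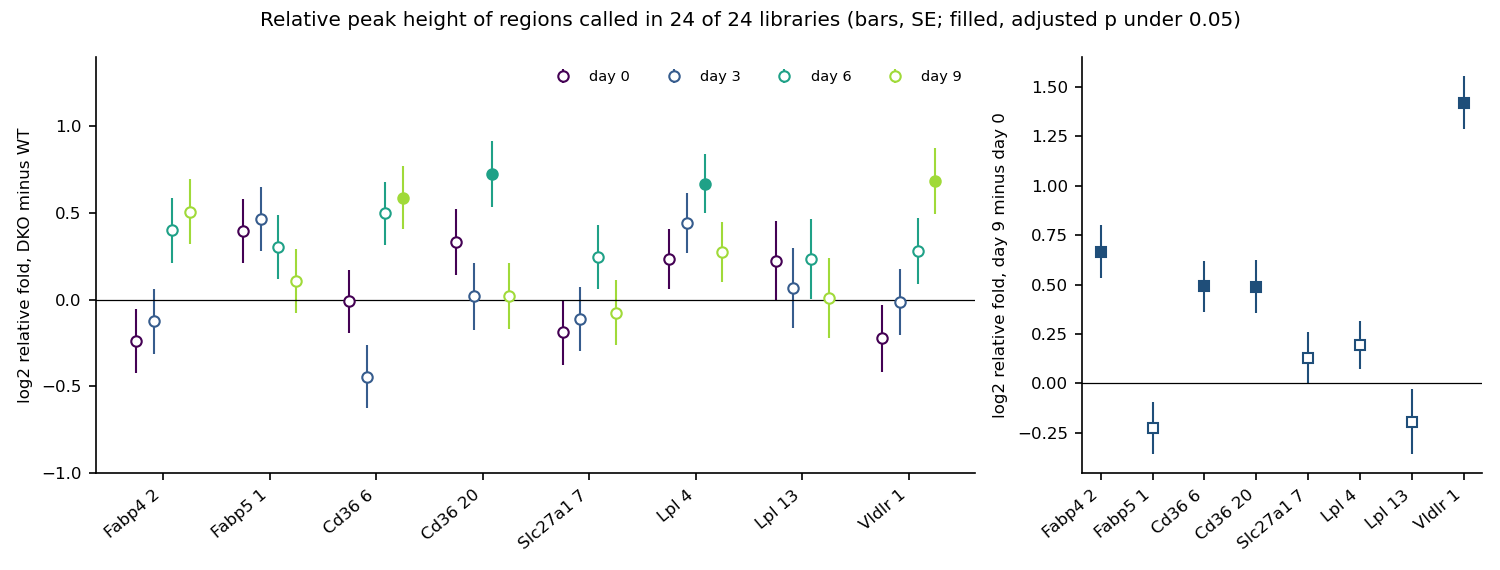
Log2 relative fold of the 8 regions (x axis, with regions numbered along the gene from upstream, so that Cd36 6 is the intron, Cd36 20 the RefSeq start, Lpl 4 the gene start and Lpl 13 the gene end), as DKO minus WT at each day on the left and day 9 minus day 0 on the right, with bars of 1 SE and filled points where the adjusted p was under 0.05. Vldlr rose by 1.42 from day 0 to day 9 and was 0.69 higher in DKO at day 9.

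Among 40 related genes of the same processes (other FABPs and transport proteins, lipase regulators, receptors, glycerol channels, caveolae and acyl-CoA synthetases), 31 could be tested. From day 0 to day 9 15 of them rose, against 16.8% of all genes, and 5 fell, against 15.3%, with a median change of 0.62 kb, beside 0.0365 kb over all genes. The widest change was at Fabp12, a FABP gene next to Fabp4, a mean rise of 17.3 kb (exact permutation test, adjusted p = 0.0198). On group means it went from 0.25 to 14.6 kb in WT and from 0.88 to 21.0 kb in DKO. Acsl1, which encodes a long-chain acyl-CoA synthetase, rose by 13.4 kb. Cav1 and Cavin1, which build caveolae, rose by 7.11 and 7.04 kb, and Angptl4, a secreted inhibitor of LPL, by 4.39 kb. Scarb2, a relative of Cd36, rose by 3.45 kb. Lrp1, a lipoprotein receptor, fell by 7.97 kb and the aquaporin gene Aqp9 fell by 3.67 kb. All of these had an adjusted p of 0.0198.

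None of the 31 passed in the genotype test over 4 days. At day 9 18 of them were higher in DKO without overlap, against 30.3% of all genes, and none was lower, against 2.08%, among them Acsl1 (by 8.95 kb), Fabp12 (by 6.39 kb), Cav1 (by 4.15 kb), Angptl4 (by 2.46 kb) and Cavin1 (by 1.94 kb). At day 6 16 of the 31 were lower, against 61.1% of all genes, and none was higher, against 0.0641%. The genes that rose to day 9 were 2 of 3 tested among other FABPs, 5 of 9 lipase regulators and 3 of 5 caveola genes, against 16.8% of all genes. The FABPs that rose were Fabp12 and Fabp9, and the window of Fabp9 shares bases with that of Fabp4, so peaks there were counted for both.

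The genes whose covered length over the 24 libraries ran most alike were counted by Spearman correlation, which is given as a description since the points share libraries and depth. For Fabp4 these were Lipe (0.981), the hormone-sensitive lipase, Arl4a (0.980) and Chst15 (0.978). For Cd36 they were Phospho1 (0.981), Aco1 (0.976) and Cnnm2 (0.969), and for Lpl they were Zfp950 (0.962), Plod3 (0.959) and Pparg (0.953), the receptor that rosiglitazone binds. Among the set itself, Fabp4 had a correlation of 0.924 with Cd36, 0.921 with Lpl and 0.913 with Vldlr, and 0.252 with Slc27a1.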

How the data were processed

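H3K27ac ChIP-seq was measured in 24 libraries (2 genotypes, 4 days, 3 libraries each). The 16 input samples were not analysed here, and which input served as control of which list is not given in the sources used here. According to the study's methods and the submitters' processing notes, the authors demultiplexed single-end reads with bcl2fastq 2.17, trimmed them with cutadapt 1.18, aligned them to mm10 with BWA 07.17 and called narrow peaks with MACS2 2.1.1.20160309 in each library on its own, so a deeper library or a higher ratio of signal to background gives more and wider peaks. The deposited lists give each peak's fold over the local background (a ratio), and the −log10 of its p-value and q-value, as made by the authors. Whole reads at the summit were recovered from fold and −log10 p for at least 99.99% of peaks (tolerance 0.01), and sequencing totals are unknown.

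Covered length was summed over the GENCODE span and 10 kb upstream and tested over all protein-coding genes with covered length in at least 3 libraries. Exact two-sided permutation tests exchanged genotype within days (160000 relabellings, smallest p 1.25e-05), day 9 and day 0 within genotypes (400, smallest p 0.005), or 3 against 3 (20, smallest p 0.1). P-values were adjusted by Benjamini-Hochberg over all genes, with 0.05 as threshold. Peaks of all libraries that overlapped were merged into regions, and limma 3.58.1 (trend, R 4.3.3) tested log2 fold less the library median in the 15375 regions called in 24 of 24 libraries. Python 3.11.15, numpy 2.4.6, pandas 2.3.3 and scipy 1.17.1 were used, and the tests were tested on simulated data.

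Named were the 9 genes, related genes past the genotype test or among the 8 with the widest change from day 0 to day 9, the 3 most alike genes of Fabp4, Cd36 and Lpl, and for each gene the region at the start with up to 3 others of highest median fold or called mostly in 1 genotype. Other regions named were chosen after their values were seen. The genes and lists were chosen with earlier results of these data known. Alternatives were another unit of length, other peak filters and windows, another test and each library number left out. Recomputing the change of the genotype difference and the steps per 100 Mb covered, and without the 2 libraries that stood apart, was chosen after seeing the data.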

Additional observations from a re-analysis of the deposited data

Results flagged for a closer look

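The difference between DKO and WT changed with the day at 2 of the 8 genes tested, against 20% of all genes. At Lpl the adjusted p of the exact permutation test was 0.0265, with DKO above WT at day 0 and below it at day 6. At Vldlr it was 0.0344, with DKO below WT at day 6 and above it at day 9. Per 100 Mb covered neither passed, and DKO was higher at both genes at day 6.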

How the results depend on the processing

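Of 607 values and counts of the 8 genes under other settings, 488 stayed the same, 72 lost the threshold, 7 gained it, 28 turned direction and 12 moved otherwise. A value was the same where it kept its direction and its side of the threshold. The counts of regions past the threshold in relative fold were the same where they stayed close to the main count. The 12 that moved are such counts. The cause of the changes was not tested. Per 100 Mb covered, 4 genes passed higher over the 4 days, against 1571 of 15592 genes. At day 6 0 were lower, against 2280, and 7 higher, against 5875. Between day 0 and day 3 1 fell, against 1570, and 3 rose, against 1520. Between day 6 and day 9 1 fell, against 623, and 0 passed for a change with day, against 13. Lpl turned to 1.76 kb over the 4 days and 7.46 kb at day 6, and Vldlr to 2.56 kb at day 6. By limma on log2 of covered kb, 1 gene passed higher over the 4 days, against 122 of 15592 genes, and Vldlr turned to -0.070. With the 20000 strongest peaks of each library, 12478 genes and 7 of the 9 were tested. Of the 7, 3 were higher at day 0, against 2065 genes, and 2 lower at day 3, against 1322. At day 6 0 were lower, against 4594, and 2 higher, against 173. To day 9 4 rose, against 608. The turned values were -0.30 kb at Fabp4 at day 0, -0.16 kb at Slc27a1 from day 0 to day 9, 0.57 kb at Lpl over the 4 days and 0.011 kb at Vldlr at day 6. With 250 bp on either side of each summit, 2 genes were higher at day 0, against 249 of 15599 genes, and 0 lower at day 6, against 3880. At day 9 1 was lower, against 452, and 1 higher, against 1757. Values that turned over the 4 days were -0.27 kb at Fabp4, -0.15 kb at Fabp5, -0.082 kb at Slc27a1, -0.22 kb at Vldlr and -0.025 kb at Aqp7. Fabp4 turned to -1.84 kb at day 9, Fabp5 to -0.58 kb at day 0 and -0.12 kb from day 0 to day 9, and Slc27a1 to -0.63 kb at day 0. With 10 kb downstream added, Gpihbp1 could be tested too and was higher in DKO without overlap at day 0 (0.867 kb), and Lpl was apart at day 9. Of the 9 genes 6 were higher at day 0, against 3200 of 16329 genes, and 7 at day 9, against 5230. From day 0 to day 9 5 rose, against 2824. At day 3 1 gene was lower, against 1671, and 1 higher, against 114, and Vldlr turned to -0.50 kb over the 4 days. With −log10 q of at least 5, 1 gene was lower at day 6, against 9061 of 15285 genes, and Fabp3 turned to -0.0043 kb. Without WT day 3 replicate 3, 4 genes were lower at day 3, against 52.7% of all genes. Without DKO day 0 replicate 2, 1 rose between day 0 and day 3, against 321 of 15548 genes.

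For relative fold without subtraction of the median, 0 regions passed over the 4 days, against 3816 lower and 170 higher of 15375. At day 3 1 passed (lower), against 2040 lower. At day 6 0 passed, against 7495 lower and 69 higher. The turned values over the 4 days were -0.00052 in the Cd36 intron, -0.0227 at Fabp4 and -0.0248 at the 3′ end of Lpl, and from day 0 to day 9 0.0191 at Fabp5 and 0.0516 at the 3′ end of Lpl. With −log10 q in place of fold, 0 passed at day 9, against 35 lower and 29 higher of 15375, and the start of Slc27a1 turned to 0.13.

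With each replicate number left out in turn, 15291 to 15373 genes were tested. Of the 8, 0 to 4 were lower at day 3, against 1974 to 8589 of all genes. At day 6 2 to 4 were lower, against 9979 to 11876, and 0 to 1 higher, against 29 to 584. The rise to day 9 gave 0 calls in each (range 0 to 0), since the smallest p is then 0.0556. Vldlr over the 4 days ranged from -0.019 to 0.322 kb and Fabp3 from day 0 to day 9 from -0.080 to 0.217 kb. Regions that passed, all higher, ranged from 0 to 2 over the 4 days, against 474 to 579 of 15375 regions, and 0 to 1 at day 3, against 183 to 385. They ranged from 0 to 2 at day 6, against 396 to 521, and 0 to 0 at day 9, against 236 to 257. The start of Slc27a1 ranged from -0.087 to 0.029.

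Libraries of the same number deviated together in 1 of 12 pairs (correlation above 0.1, range -0.0956 to 0.158), so the numbers do not pair them. With a replicate block, 0 genes passed over the 4 days (exact permutation test, adjusted p 0.646 to 0.991). In relative fold 2 regions in place of 3 passed over the 4 days, and the counts of the other contrasts stayed the same. The block does not enter the calls by overlap or the test of day 9 against day 0 in covered length, so these could not change.

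Over all genes, those lower and higher in DKO over the 4 days were 17 and 3, and 963 and 1571 per 100 Mb covered, 177 and 4 with 250 bp at summits, 197 and 13 without DKO day 0 replicate 2, 36 and 3 without WT day 3 replicate 3, 892 and 122 by limma, and 0 and 0 with a replicate block or a number left out. Genes that rose to day 9 were 2623, and 608 with the strongest peaks and 4901 without DKO day 0 replicate 2. Depth, shown by peaks of 11 to 19 reads at Fabp3, limits what can be called at weak regions.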
